A study of Mus musculus with 24 samples.

Results

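The FOXO transcription factor genes Foxo1, Foxo3, Foxo4 and Foxo6 were followed through 24 RNA-seq libraries of murine B-cell acute lymphoblastic leukemia cells. They were taken by symbol, as the factor that was deleted or inhibited and its 3 paralogs, and make up 4 of the 41444 genes in the deposited tables. All 4 were among the 11591 genes whose mean was high enough for testing. The leukemia cells, labelled as bone marrow, expressed BCR-ABL1, and every group, vehicles included, carried floxed Foxo1 alleles and a Cre-ERT2 recombinase. One arm of the study compared 70 nM AS1842856, named in the series title as a dual FOXO1 and GSK3 inhibitor, with the solvent DMSO. The other arm compared 200 nM 4-hydroxytamoxifen (4-OHT), which activates Cre-ERT2 and so deletes Foxo1, with the solvent ethanol (EtOH). The sample titles call the 4-OHT libraries CrePlus and the EtOH libraries CreMinus. RNA was taken after 24 h and 48 h, which gave 8 groups of 3 libraries. The sources used here do not name the promoter that drives Cre or the floxed exon, nor whether the cells descend from 1 clone. None of the 24 libraries had 4-OHT without Cre-ERT2 or without floxed Foxo1, so the loss of Foxo1 and other actions of 4-OHT or Cre cannot be told apart.

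FOXO proteins are forkhead transcription factors that act as the nuclear brake of growth factor signalling. When PI3K is active, AKT phosphorylates them, 14-3-3 proteins bind them and they leave the nucleus. When PI3K is quiet they stay on DNA and activate genes of cell cycle arrest, stress resistance and cell death. In early B cells FOXO1 drives the IL-7 receptor and the RAG recombinase, and the BCR-ABL1 kinase keeps PI3K and AKT active in this kind of leukemia. Since phosphorylation moves the protein and not the transcript, RNA levels do not show FOXO activity.

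The forkhead domain, which reads DNA, is the part in which the paralogs are most alike. How well reads were assigned there was not tested. The following 60 coding bases are the Foxo1 stretch of that length that its least alike paralog matched best. Only in-frame stretches within an exon were compared, each with Foxo1. They come from GENCODE M21 transcripts on GRCm38, the assembly also called mm10, and are written in the sense of the transcript. Capitals mark bases that differ from Foxo1, so the Foxo1 line has none.
Foxo1: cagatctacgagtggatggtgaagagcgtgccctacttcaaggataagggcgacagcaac
Foxo3: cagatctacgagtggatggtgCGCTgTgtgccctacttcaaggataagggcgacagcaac
Foxo4: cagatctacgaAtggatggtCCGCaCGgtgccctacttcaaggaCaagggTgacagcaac
Foxo6: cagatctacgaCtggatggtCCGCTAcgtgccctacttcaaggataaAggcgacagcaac

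The Foxo1 stretch lies at chr3:52269345-52269404 on the plus strand, in exon 1. Foxo3 differs from it at 5 bases and lies at chr10:42274834-42274893 on the minus strand, in exon 2. Foxo4 differs at 9 bases, at chrX:101255196-101255255 on the plus strand, in exon 1. Foxo6 differs at 8 bases, at chr4:120286857-120286916 on the minus strand, in exon 1. The longest run of bases that Foxo1 and Foxo3 transcripts share exactly is 38, and the other pairs share runs of 17 to 21. Reads that lie wholly within such runs could have been divided between paralogs, since the sources used here do not state how reads were counted. A read longer than the shared run holds a base that differs. The Foxo1 gene spans 52268336 to 52353221 and overlaps the antisense gene Gm20402 and the unconfirmed transcript Gm38034, whereas no annotated gene overlaps Foxo3, Foxo4 or Foxo6. Without a stated strand setting, reads of Foxo1 and its antisense partner cannot be told apart.

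All levels are log2 expression as normalised by the authors. Read counts and depth per library cannot be recovered from them. Differences are treated minus vehicle, with ± for the SE, and were tested with limma across the 11591 genes with Benjamini-Hochberg adjustment, with a call at an adjusted p under 0.05. Differences between these library values are smaller than the fold changes in the authors' deposited table for Foxo1, Foxo4 and Foxo6. Both are therefore given where a result turns on them. Nothing in the labels shows that the 3 libraries of a group came from separate cultures, so p-values measure the spread between libraries, which may be technical. The library medians over the tested genes ran from 9.13 to 9.19. All 9 B-cell leukemia markers were tested, with means over the libraries from 11.6 (Blnk) to 14.6 (Cd24a). Of the defining markers of other cells, Cd4, Elane, S100a8, S100a9, Hba-a1 and Hbb-bs were listed at 0 in every library, and Cd3e, Cd8a, Mpo, Col1a1 and Cdh5 stood below 0. Other listed markers were higher, with a mean over the libraries of 9.99 for Pecam1, listed as an endothelial marker. The means were 6.71 for Lyz2 and 3.40 for Csf1r of myeloid cells and 3.24 for Klrb1c of NK cells. Cd3g of T cells had values of 2.53 to 3.60.

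Foxo1, the targeted gene, was lower in every 4-OHT library than in any EtOH library. At 24 h it stood at 8.18, 8.27 and 7.99 in the 4-OHT libraries, against 9.88, 9.84 and 9.80 in the EtOH libraries. At 48 h it stood at 8.16, 8.02 and 8.12 in the 4-OHT libraries, against 10.02, 10.11 and 10.07 in the EtOH libraries. The groups did not overlap at either time, and the gap was many times the spread within a group. Among all tested genes, the 2 groups did not overlap for 45.7% at 24 h and 59.5% at 48 h. The difference was -1.69 ± 0.07 at 24 h (limma adjusted p = 4.13e-06) and -1.97 ± 0.06 at 48 h (limma adjusted p = 1.18e-07). The fold changes in the authors' deposited table put Foxo1 at 15.4% of EtOH at 24 h (95% interval 12.2% to 19.3%) and at 11.6% at 48 h (95% interval 9.21% to 14.6%). A gene-level value adds all exons, so what remained cannot be divided between intact and recombined transcripts. In bulk RNA, fewer cells with the transcript and less transcript per cell cannot be told apart.

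**Figure D1:**
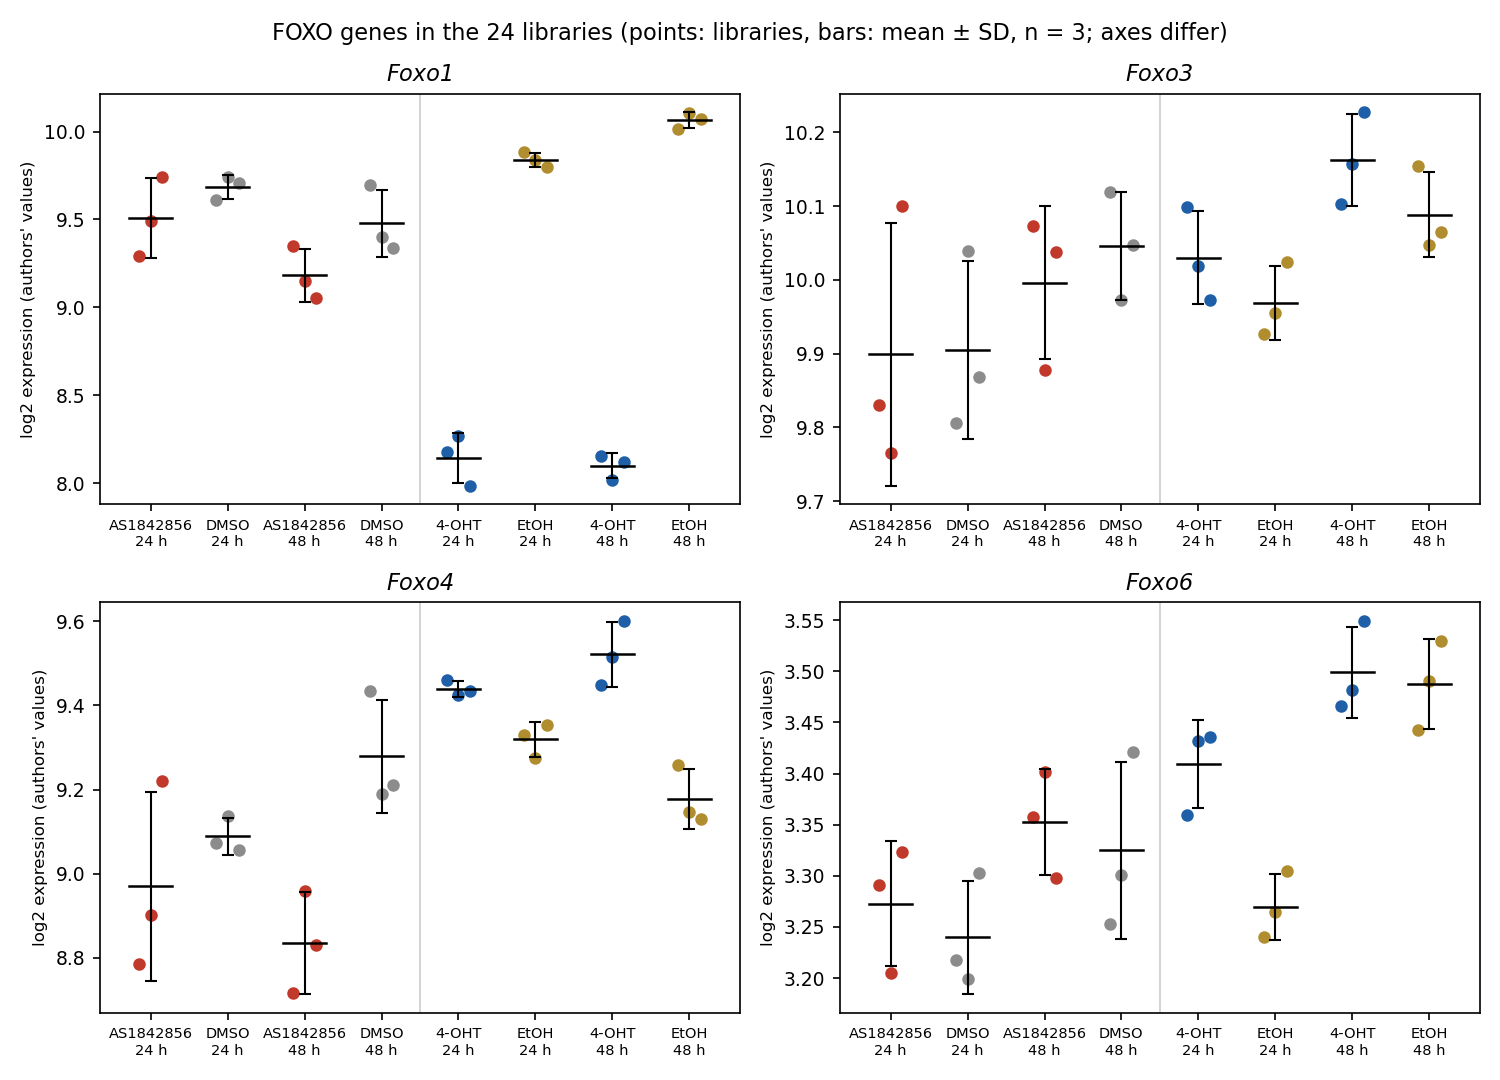
Expression of Foxo1, Foxo3, Foxo4 and Foxo6 in the 24 libraries, on the authors' log2 scale, with 3 points for each of the 8 groups and bars for the mean ± SD; the vertical axes differ between panels. The 6 4-OHT libraries hold the lowest Foxo1 values, 7.99 to 8.27, and the 3 AS1842856 libraries at 48 h hold Foxo4 values of 8.72 to 8.96, below all 3 DMSO libraries of that time.

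In 4-OHT libraries Foxo1 was already low at 24 h, with no further difference at 48 h beyond the spread. It differed by -0.04 ± 0.08 between 4-OHT libraries at 48 h and at 24 h (limma adjusted p = 0.744), a comparison in which 21.9% of tested genes passed. In EtOH libraries it was higher by 0.23 ± 0.04 at 48 h than at 24 h (limma adjusted p = 0.00706), where 25.0% of tested genes passed. That call was lost in 1 limma fit of all 8 groups (adjusted p = 0.159). The response to 4-OHT at 48 h minus that at 24 h was -0.27 ± 0.09 (limma adjusted p = 0.0712), in a contrast that 15.4% of tested genes passed. Without 4-OHT 24 h replicate 3, the lowest of its group, that contrast was -0.35 and passed (limma adjusted p = 0.0115).

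With AS1842856, no difference in Foxo1 RNA passed at 24 h, and at 48 h one passed only when libraries were paired by replicate number. At 24 h it stood at 9.29, 9.49 and 9.74 in AS1842856 libraries, against 9.61, 9.74 and 9.71 in DMSO libraries. The 48 h values were 9.35, 9.15 and 9.05 in AS1842856 libraries, against 9.69, 9.40 and 9.34 in DMSO libraries. The groups overlapped at both times, at 48 h through 1 AS1842856 library, replicate 1, that lay between the DMSO values. The difference was -0.18 ± 0.12 at 24 h (limma adjusted p = 1) and -0.29 ± 0.11 at 48 h (95% interval -0.56 to -0.03, limma adjusted p = 0.198). With 1 library left out it ran from -0.30 (without AS1842856 24 h replicate 3) to -0.07 (without AS1842856 24 h replicate 1) at 24 h. At 48 h it ran from -0.38 (without AS1842856 48 h replicate 1) to -0.19 (without DMSO 48 h replicate 1), and limma called it in none of these fits. At 48 h the deviations of same-numbered libraries correlated across genes at 0.41, 0.25 and 0.14 for replicates 1, 2 and 3. AS1842856 replicate 2 went with DMSO replicate 3 at 0.18, so the pairing was clearest for replicate 1. A fit with replicate number as block gave the difference of -0.29 an SE of 0.05 and a call (limma adjusted p = 0.0159). Within the 3 numbered pairs, AS1842856 was the lower each time. The authors' deposited table gives 85.2% of DMSO at 24 h (adjusted p = 0.822) and 73.8% at 48 h (95% interval 59.1% to 92.1%, adjusted p = 0.0558). Foxo1 at 48 h minus 24 h was -0.32 ± 0.13 in AS1842856 libraries (limma adjusted p = 0.235), where 0.380% of tested genes passed. In DMSO libraries it was -0.21 ± 0.10 (limma adjusted p = 0.522), where 0.00863% passed. In 1 limma fit of all 8 groups the AS1842856 difference between times passed (adjusted p = 0.0447).

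The compound and the deletion differed in their effect on Foxo1 RNA. Foxo1 was targeted for deletion in the 4-OHT arm only, so such a difference was built into the design. The AS1842856 response minus the 4-OHT response was 1.52 ± 0.15 at 24 h (limma adjusted p = 1.05e-04), in a contrast that 6.05% of tested genes passed. At 48 h it was 1.67 ± 0.13 (limma adjusted p = 4.07e-06), in a contrast that 36.8% passed. Each response was taken against its own vehicle, and at 48 h the vehicles differed. For Foxo1, DMSO minus EtOH was -0.59 ± 0.09 at 48 h (limma adjusted p = 0.00686) and -0.15 ± 0.06 at 24 h, which did not pass (limma adjusted p = 0.144). Of all tested genes, 2.76% passed between the vehicles at 24 h and 21.3% at 48 h. The solvent and the arm in which the cells were handled cannot be told apart.

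Foxo4, a paralog on the X chromosome that AKT also phosphorylates, moved in opposite directions in the 2 arms at 48 h. It stood at 9.45, 9.51 and 9.60 in 4-OHT libraries, against 9.26, 9.15 and 9.13 in EtOH libraries. It stood at 8.72, 8.96 and 8.83 in AS1842856 libraries, against 9.43, 9.19 and 9.21 in DMSO libraries. In neither arm did the groups overlap, which held for 59.5% of tested genes with 4-OHT and for 26.8% with AS1842856. The difference was 0.34 ± 0.06 with 4-OHT (limma adjusted p = 0.00117) and -0.44 ± 0.09 with AS1842856 (limma adjusted p = 0.0412). The authors' deposited table gives 143% of EtOH (95% interval 118% to 174%, adjusted p = 0.00137) and 61.5% of DMSO (95% interval 50.5% to 74.8%, adjusted p = 6.08e-05).

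The AS1842856 response of Foxo4 minus its 4-OHT response was -0.79 ± 0.11 at 48 h (95% interval -1.04 to -0.54, limma adjusted p = 2.49e-04). That contrast passed without any 1 of the 12 libraries. The rise with 4-OHT alone also passed without any 1 of its 6 libraries, with limma adjusted p-values of at most 0.00611. The fall with AS1842856 was close to the threshold. It passed without DMSO 48 h replicate 1, the highest of its group (-0.37, limma adjusted p = 0.0467). It did not pass without AS1842856 48 h replicate 1, 2 or 3 (limma adjusted p = 0.122, 0.0726 and 0.152) or without DMSO 48 h replicate 2 or 3 (limma adjusted p = 0.0844 and 0.0958), and the difference stayed between -0.51 and -0.37.

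At 24 h the same directions appeared for Foxo4 but did not pass. It stood at 9.46, 9.42 and 9.43 in 4-OHT libraries, against 9.33, 9.27 and 9.35 in EtOH libraries. It stood at 8.79, 8.90 and 9.22 in AS1842856 libraries, against 9.07, 9.14 and 9.06 in DMSO libraries. The groups were apart with 4-OHT, which held for 45.7% of tested genes. They overlapped with AS1842856, where replicate 3 lay above all DMSO libraries. The difference was 0.12 ± 0.04 with 4-OHT (limma adjusted p = 0.0678) and -0.12 ± 0.12 with AS1842856 (limma adjusted p = 1). The AS1842856 response minus the 4-OHT response was -0.24 ± 0.13 (limma adjusted p = 0.304). Without AS1842856 24 h replicate 3 it was -0.36 and passed (limma adjusted p = 0.00914).

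The Foxo4 response to 4-OHT at 48 h minus that at 24 h was 0.22 ± 0.07 and did not pass (limma adjusted p = 0.0502). It passed without 4-OHT 48 h replicate 1 (0.26, limma adjusted p = 0.0346) and without EtOH 48 h replicate 1 (0.26, limma adjusted p = 0.0254). Between times, 4-OHT libraries differed by 0.08 ± 0.05 (limma adjusted p = 0.289) and EtOH libraries by -0.14 ± 0.05 (limma adjusted p = 0.0785). Without EtOH 48 h replicate 1 the EtOH difference was -0.18 and passed (limma adjusted p = 0.0357). The compound response of Foxo4 at 48 h minus that at 24 h was -0.33 ± 0.16 (limma adjusted p = 1), in a contrast that 0.00863% of tested genes passed. Between the vehicles, Foxo4 was -0.23 ± 0.06 in DMSO against EtOH at 24 h (limma adjusted p = 0.0645) and 0.10 ± 0.08 at 48 h (limma adjusted p = 0.403).

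**Figure D2:**
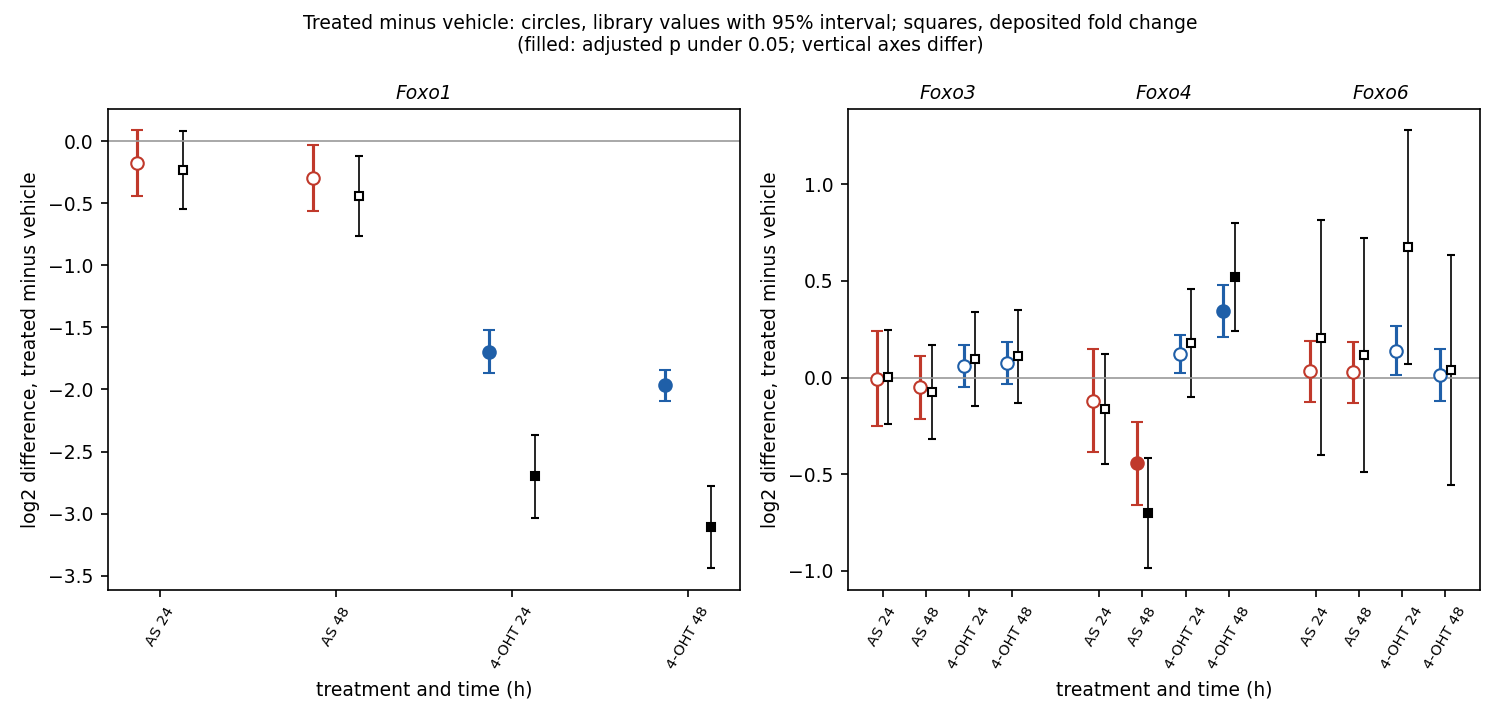
Treated minus vehicle differences (log2) for Foxo1, left, and Foxo3, Foxo4 and Foxo6, right, with the treatment and time in h on the horizontal axis. Circles show differences of library values and squares the authors' deposited fold changes, each with a 95% interval and filled where the adjusted p is under 0.05; the Foxo1 circles for 4-OHT lie at -1.69 and -1.97, and Foxo4 at 48 h lies at -0.44 with AS1842856 and 0.34 with 4-OHT.

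Foxo3, a paralog linked to stress resistance and cell death, passed in none of the 4 treatment comparisons, with unadjusted p-values of 0.158 or more. At 48 h it stood at 10.10, 10.16 and 10.23 in 4-OHT libraries, against 10.15, 10.05 and 10.07 in EtOH libraries. It stood at 10.07, 9.88 and 10.04 in AS1842856 libraries of that time, against 10.12, 9.97 and 10.05 in DMSO libraries. The groups overlapped in both arms. The difference was 0.07 ± 0.05 with 4-OHT (95% interval -0.03 to 0.18, limma adjusted p = 0.231) and -0.05 ± 0.07 with AS1842856 (95% interval -0.21 to 0.11, limma adjusted p = 0.751). The authors' deposited table gives 108% of EtOH (95% interval 91.4% to 128%) and a 95% interval of 80.3% to 112% of DMSO.

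At 24 h Foxo3 stood at 10.10, 10.02 and 9.97 in 4-OHT libraries, against 9.93, 9.96 and 10.02 in EtOH libraries. It stood at 9.83, 9.77 and 10.10 in AS1842856 libraries, against 9.81, 10.04 and 9.87 in DMSO libraries. Both pairs of groups overlapped, and the widest spread was that of AS1842856, whose replicate 3 was the highest. The difference was 0.06 ± 0.05 with 4-OHT (95% interval -0.05 to 0.17, limma adjusted p = 0.367) and -0.01 ± 0.11 with AS1842856 (95% interval -0.25 to 0.24, limma adjusted p = 1). The AS1842856 response minus the 4-OHT response was -0.07 ± 0.12 at 24 h (limma adjusted p = 0.790) and -0.12 ± 0.09 at 48 h (limma adjusted p = 0.289). Foxo3 at 48 h minus 24 h lay between 0.10 and 0.14 in all 4 treatments, and passed in none (limma adjusted p = 0.638 for AS1842856, 0.556 for DMSO, 0.0983 for 4-OHT and 0.0828 for EtOH). Of all tested genes 0.380% passed between times with AS1842856 and 0.00863% with DMSO.

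Foxo6, a paralog known from the brain and liver, was close to the lower limit of tested levels, with values of 3.20 to 3.55 over the 24 libraries. At 24 h it stood at 3.36, 3.43 and 3.44 in 4-OHT libraries, against 3.24, 3.26 and 3.30 in EtOH libraries. These groups did not overlap, which held for 45.7% of tested genes, and the difference of 0.14 ± 0.06 did not pass (limma adjusted p = 0.0939). The authors' deposited table gives 159% of EtOH there (95% interval 105% to 242%, adjusted p = 0.108). At 48 h Foxo6 stood at 3.47, 3.48 and 3.55 in 4-OHT libraries, against 3.44, 3.49 and 3.53 in EtOH libraries. The later groups overlapped, with a difference of 0.01 ± 0.06 (limma adjusted p = 0.886).

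In the compound arm at 24 h, Foxo6 values were 3.29, 3.20 and 3.32 in AS1842856 libraries, against 3.22, 3.20 and 3.30 in DMSO libraries. At 48 h it stood at 3.36, 3.40 and 3.30 in AS1842856 libraries, against 3.25, 3.30 and 3.42 in DMSO libraries. The groups overlapped at both times, with differences of 0.03 ± 0.07 at each (limma adjusted p = 1 at 24 h and 0.873 at 48 h). In EtOH libraries Foxo6 was higher at 48 h than at 24 h by 0.22 ± 0.05 (limma adjusted p = 0.0230). That call was lost without EtOH 24 h replicate 1 or 2 (limma adjusted p = 0.0700 and 0.0617) or EtOH 48 h replicate 2 or 3 (limma adjusted p = 0.0603 and 0.0775).

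Over the family, 1 of 4 genes passed with 4-OHT at 24 h, where 29.2% of tested genes did. At 48 h 2 of 4 passed, where 50.3% of tested genes did. Foxo1, the targeted gene, was counted at both times, and its call was built into the design. Of the paralogs only Foxo4 passed, at 48 h. With AS1842856, 0 of 4 passed at 24 h, where 0.00863% of tested genes did, and 1 of 4 at 48 h, where 4.72% did. At 24 h with AS1842856, limma gave 0 of 4 an unadjusted p under 0.05, and the authors' deposited table called 0 of 4 among 0.130% of its genes. With the replicate number as a block, 2 of 4 passed with AS1842856 at 48 h, Foxo1 and Foxo4, where 13.8% of tested genes did. The test of the difference between arms passed for 1 of 4 at 24 h, where 6.05% of tested genes did. At 48 h it passed for 2 of 4, where 36.8% of tested genes did. Foxo1 was again counted at both times, and Foxo4, at 48 h, was the only paralog.

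Divided by the length of exon, which allows levels of different genes to be set side by side, Foxo4 stood highest, then Foxo3, Foxo1 and Foxo6. In EtOH libraries at 24 h the log2 level per kb was 7.52 ± 0.04 for Foxo4, 7.05 ± 0.05 for Foxo3, 6.72 ± 0.04 for Foxo1 and 1.88 ± 0.03 for Foxo6 (SD, n = 3). This order held without overlap between neighbours in 6 of the 8 groups. The exceptions were both AS1842856 groups, where Foxo4 and Foxo3 overlapped. In AS1842856 libraries at 48 h Foxo3 stood at 7.08 ± 0.10 and Foxo4 at 7.03 ± 0.12, against 7.13 ± 0.07 for Foxo3 and 7.48 ± 0.14 for Foxo4 in DMSO libraries (SD, n = 3). The gap between Foxo3 and Foxo1 widened with 4-OHT. At 48 h Foxo1 stood at 4.98 ± 0.07 and Foxo3 at 7.24 ± 0.06 in 4-OHT libraries, against 6.95 ± 0.05 for Foxo1 and 7.17 ± 0.06 for Foxo3 in EtOH libraries (SD, n = 3). These levels divide a transformed value by length, so they order the genes and do not count molecules.

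**Figure D3:**
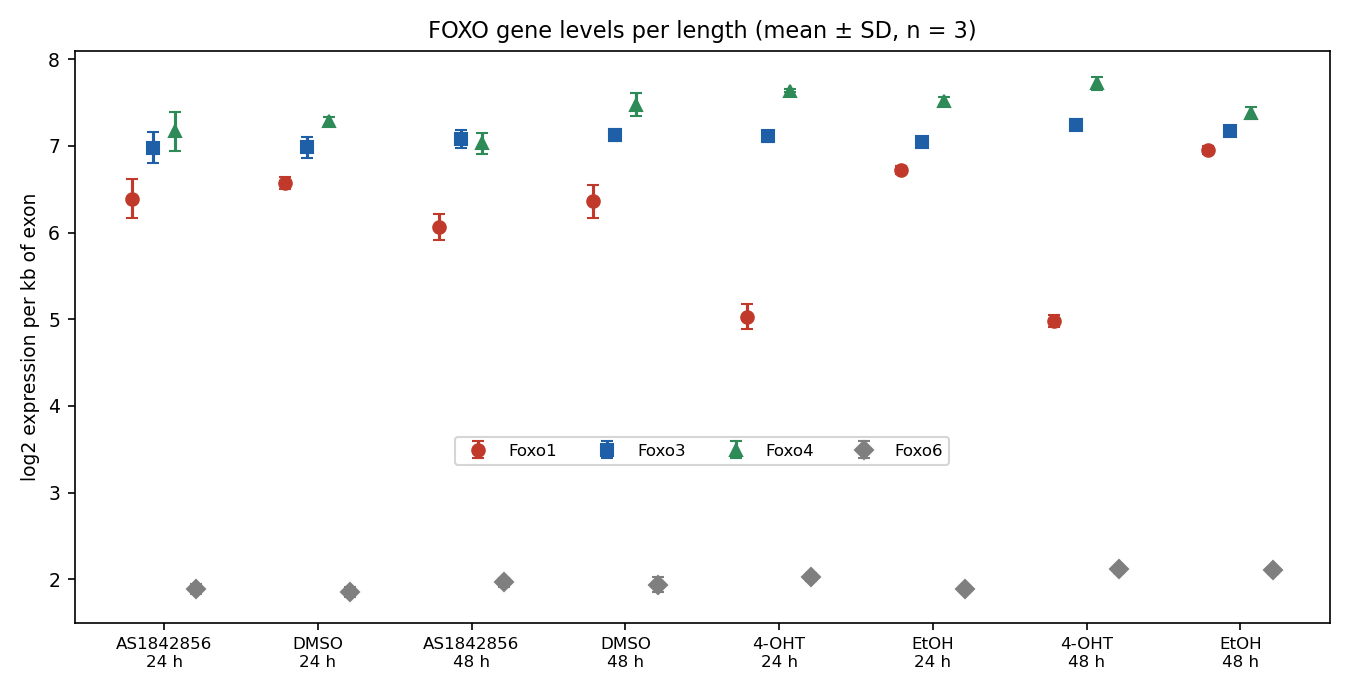
Level of each FOXO gene per kb of exon (log2) in the 8 groups, as mean ± SD of 3 libraries. Foxo1 lies just below Foxo3 in the EtOH groups (6.72 and 6.95) and far below it in the 4-OHT groups (5.03 at 24 h and 4.98 at 48 h), and Foxo4 and Foxo3 meet in the AS1842856 groups.

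On the authors' log2 scale the FOXO genes differed in how much they spread from library to library. The pooled SD within groups was 0.134 for Foxo1, 0.0975 for Foxo3, 0.111 for Foxo4 and 0.0545 for Foxo6. Its median over all tested genes was 0.0991. The small SD of Foxo6, near the lower limit of tested levels, does not make it the most certain. With 4-OHT at 24 h its deposited fold change had a standard error of 0.31, against 0.17 for Foxo1. AS1842856 24 h replicate 3 was the highest of its group for all 4 FOXO genes. It stood above its group mean by 0.24 for Foxo1, 0.20 for Foxo3, 0.25 for Foxo4 and 0.05 for Foxo6. DMSO 48 h replicate 1 was the highest of its group for Foxo1, Foxo3 and Foxo4, and the lowest for Foxo6.

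The genes most like Foxo1 over the 24 libraries, by the root mean square distance between centred values, were Camk2d, Ipcef1, Dlg2, Rgs8 and Lhfp. Their distances ran from 0.271 to 0.330, against a median distance of 0.717 over the tested genes. Camk2d, a calmodulin-dependent kinase, differed by -1.60 with 4-OHT at 24 h and -1.32 at 48 h, and by -0.36 and -0.63 with AS1842856. The genes most like Foxo4 were Aspm, Arhgef1, Knstrn, Neil3 and Ing4, at distances from 0.0917 to 0.0979, against a median of 0.280. Aspm, a mitotic spindle protein, differed by 0.10 with 4-OHT at 24 h and 0.28 at 48 h, and by -0.15 and -0.42 with AS1842856. These genes were picked for their likeness, so their values describe the choice. With Pearson's correlation as the measure, 1 of 5 stayed on each list, Ipcef1 for Foxo1 and Arhgef1 for Foxo4.

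Of the other forkhead genes, 12 of 40 listed were expressed highly enough for testing, led by Foxp1, a regulator of early B-cell development, at a mean of 12.1. At 48 h with 4-OHT, 4 of 12 rose, where 24.8% of tested genes did, and 3 of 12 fell, where 25.6% did. Foxm1, a driver of mitotic genes, rose by 0.36 ± 0.04 with 4-OHT (limma adjusted p = 1.50e-04) and differed by -0.31 ± 0.06 with AS1842856 (limma adjusted p = 0.0354). Foxp4, a relative of Foxp1, rose by 0.30 ± 0.03 with 4-OHT (limma adjusted p = 1.24e-04) and differed by -0.33 ± 0.05 with AS1842856 (limma adjusted p = 0.0176). These were the 2 of 12 that fell with AS1842856 at 48 h, where 2.88% of tested genes fell, and both moved in the same opposite directions as Foxo4. The difference between arms passed for both (limma adjusted p = 4.97e-05 for Foxm1 and 1.38e-05 for Foxp4). Foxc1 differed by -0.37 ± 0.06 with 4-OHT (limma adjusted p = 9.83e-04) and Foxk2 by -0.24 ± 0.03 (limma adjusted p = 3.61e-04). With the replicate block, 4 of 12 fell with AS1842856, Foxk1 and Foxp1 being the added ones (limma adjusted p = 0.0102 and 0.0497), where 7.35% of tested genes fell. The median of the 12 was 0.03 with 4-OHT and -0.11 with AS1842856, against 0.01 and 0.00 over all tested genes.

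**Figure D4:**
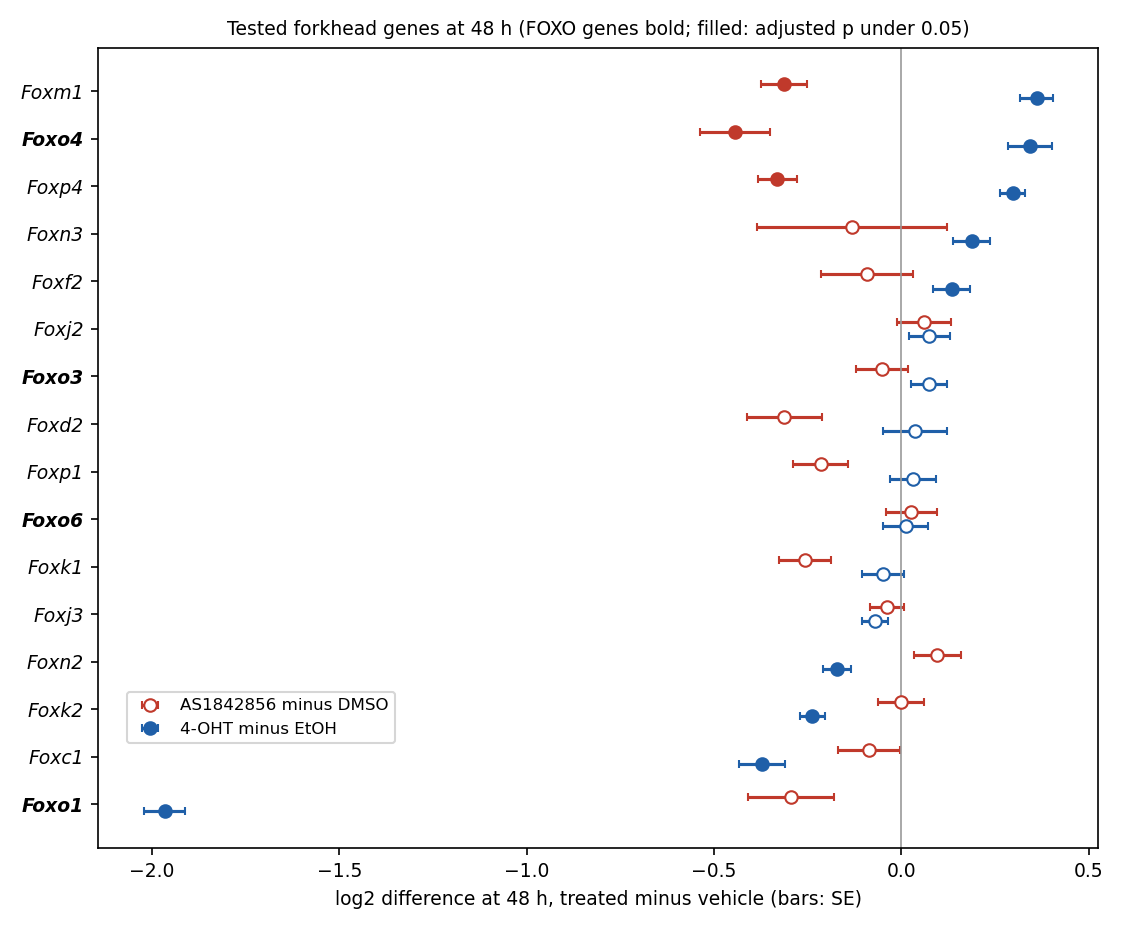
Treated minus vehicle differences (log2, ± SE) at 48 h for the 4 FOXO genes, in bold, and the 12 other tested forkhead genes, with AS1842856 above 4-OHT in each row and filled points where the limma adjusted p is under 0.05. Foxo1 with 4-OHT lies far to the left at -1.97, and Foxm1, Foxo4 and Foxp4 lie right of 0 with 4-OHT and left of 0 with AS1842856.

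Among kinases that act on FOXO proteins or on AKT, 8 of 27 rose and 5 of 27 fell with 4-OHT at 48 h, where 24.8% of tested genes rose and 25.6% fell. Prkaa2, a catalytic subunit of the energy sensor AMPK, fell most in this list, to a mean of 9.29 in 4-OHT libraries, against 10.29 in EtOH libraries (limma adjusted p = 3.53e-06). Mtor, part of the complex that activates AKT, rose by 0.51 ± 0.06 (limma adjusted p = 8.80e-05), and Cdk2, which phosphorylates FOXO1, by 0.19 ± 0.03 (limma adjusted p = 0.00160). Stk3, the stress kinase MST2, differed by -0.27 ± 0.05 (limma adjusted p = 0.00219). With AS1842856 at 48 h, 1 of 27 fell without the block and 4 of 27 with it, where 2.88% and 7.35% of tested genes fell. The median of the list was 0.03 with 4-OHT and -0.01 with AS1842856, both close to those of all tested genes.

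Genes that restrain PI3K and AKT keep FOXO proteins in the nucleus. With 4-OHT at 48 h, 4 of 14 rose and 3 of 14 fell, against 24.8% and 25.6% of tested genes. Pik3ip1, an inhibitor of PI3K, rose by 1.31 ± 0.06 (limma adjusted p = 9.93e-07). Inpp4a, a lipid phosphatase, rose by 0.59 ± 0.06 (limma adjusted p = 5.58e-05), and Phlpp1, a phosphatase of AKT, by 0.47 ± 0.04 (limma adjusted p = 3.05e-05). With AS1842856 at 48 h, 2 of 14 fell, Inppl1 (SHIP2) at -0.53 ± 0.09 (limma adjusted p = 0.0193) and Inpp5d (SHIP1) at -0.24 ± 0.05 (limma adjusted p = 0.0337). Inppl1 also fell with 4-OHT, at -0.14 ± 0.03 (limma adjusted p = 0.00531). With the block, 3 of 14 fell with AS1842856, Phlpp1 being added (limma adjusted p = 0.0191). Of tested genes, 2.88% fell there without the block and 7.35% with it. The median of the 14 was -0.01 with 4-OHT and -0.11 with AS1842856.

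The 7 genes of 14-3-3 proteins, which hold phosphorylated FOXO in the cytoplasm, were all tested, and 2 of 7 rose and 1 of 7 fell with 4-OHT at 48 h, against 24.8% and 25.6% of tested genes. Sfn rose by 0.29 ± 0.09 (limma adjusted p = 0.0241) and Ywhaz by 0.10 ± 0.03 (limma adjusted p = 0.0223), while Ywhae differed by -0.21 ± 0.03 (limma adjusted p = 7.12e-04). With AS1842856 at 48 h limma called 0 of 7, with or without the block, and gave 0 of 7 an unadjusted p under 0.05, while the authors' deposited table called 1 of 7. Of all tested genes, limma called 4.72% there without the block and 13.8% with it. Of 16 enzymes that acetylate, deacetylate or methylate FOXO proteins, 10 rose and 3 fell with 4-OHT at 48 h, against 24.8% and 25.6% of tested genes, with a median of 0.18 against 0.01 over all tested genes. Hdac5, a deacetylase, rose by 0.51 ± 0.06 (limma adjusted p = 8.72e-05), Sirt7, a sirtuin, by 0.49 ± 0.06 (limma adjusted p = 2.23e-04), and Ep300, an acetyltransferase, by 0.32 ± 0.06 (limma adjusted p = 0.00204). Prmt1, which methylates FOXO1 next to its AKT site, differed by -0.38 ± 0.07 (limma adjusted p = 0.00243). With AS1842856 at 48 h limma called 0 of 16 without the block, with 2 of 16 at an unadjusted p under 0.05, and 1 of 16, Hdac7, with it. These counts stand against the same 4.72% and 13.8% of tested genes. The authors' deposited table called 0 of 16 there. For that table and for unadjusted p-values, the shares over all genes at 48 h are not reported here.

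Of 8 tested ubiquitin ligases and deubiquitinases, 1 rose and 1 fell with 4-OHT at 48 h, against 24.8% and 25.6% of tested genes. Fbxo32, the ligase subunit atrogin-1 and itself a FOXO target in muscle, rose by 0.74 ± 0.08 with 4-OHT (limma adjusted p = 7.65e-05) and differed by -0.84 ± 0.16 with AS1842856 (limma adjusted p = 0.0295). Its difference between arms passed at -1.59 ± 0.18 (limma adjusted p = 4.99e-05). Stub1, a ligase that can mark FOXO1, differed by -0.40 ± 0.06 with 4-OHT (limma adjusted p = 5.90e-04). Of 13 tested transport genes and partners, 7 rose and 5 fell with 4-OHT at 48 h, against the same shares of tested genes. Ran and Kpnb1, of the nuclear transport machinery, differed by -0.41 ± 0.04 (limma adjusted p = 5.47e-05) and -0.32 ± 0.03 (limma adjusted p = 3.18e-05). The repressor Bcl6 rose by 0.95 ± 0.11 (limma adjusted p = 1.21e-04) and the FOXO partner Smad3 by 0.62 ± 0.05 (limma adjusted p = 1.45e-05). Cebpb was the 1 of 13 that rose with AS1842856, by 0.79 ± 0.13 (limma adjusted p = 0.0187), and it differed by -0.62 ± 0.12 with 4-OHT (limma adjusted p = 0.00238). With the block, 2 of 13 rose with AS1842856, Cebpb and Nfe2l2, and 2 fell, Ctnnb1 and Smad4, where 6.48% of tested genes rose and 7.35% fell.

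Of 46 tested genes known as FOXO targets in various cells, 22 rose and 9 fell with 4-OHT at 48 h, against 24.8% and 25.6% of tested genes, with a median of 0.23 against 0.01 over all tested genes. Cited2 fell by 1.42 (-1.42 ± 0.03, limma adjusted p = 6.65e-08) and Eif4ebp1, a brake on translation, by 1.03 (-1.03 ± 0.04, limma adjusted p = 4.07e-07). Ccr7, a homing receptor, rose by 2.09 ± 0.08 (limma adjusted p = 4.70e-07) and Btg2, an antiproliferative gene, by 1.95 ± 0.08 (limma adjusted p = 4.17e-07). With AS1842856 at 48 h, 3 of 46 rose and 6 fell, where 1.84% and 2.88% of tested genes did, with a median of -0.02. Bcl2l11, which encodes the death protein BIM, rose by 0.41 ± 0.05 (limma adjusted p = 0.0102), and by 0.59 ± 0.05 with 4-OHT (limma adjusted p = 1.25e-05). Rag2, of the recombinase, differed by -0.59 ± 0.09 with AS1842856 (limma adjusted p = 0.0145). Its means were 3.97 in AS1842856 libraries and 4.56 in DMSO libraries, not far above the lower limit of tested levels. Sesn1, a stress gene, differed by -0.44 ± 0.06 with AS1842856 (limma adjusted p = 0.0123) and Cited2 by -0.37 ± 0.06 (limma adjusted p = 0.0183). With the block, 8 of 46 rose and 12 fell, where 6.48% and 7.35% of tested genes did.

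Some markers listed for other cells moved along with these lists in the 4-OHT comparison. The 7 myeloid markers in the tables, 2 of them tested and 3 at 0, were summed to 1 level (log2). It ran from 7.54 to 7.72 in 4-OHT libraries at 48 h, against 6.63 to 6.96 in EtOH libraries. Lyz2 made up most of it, with a mean over the 24 libraries of 6.71, against 3.40 for Csf1r and 0.99 for Itgam. On the same scale the 7 T and NK cell markers, 2 tested and 1 at 0, ran from 4.56 to 4.65 in 4-OHT libraries, against 4.15 to 4.18 in EtOH libraries. The 5 stromal and endothelial markers, of which only Pecam1 was tested, ran from 10.6 to 10.7 in 4-OHT libraries at 48 h, against 9.36 to 9.51 in EtOH libraries. That sum ran from 10.1 to 10.4 in AS1842856 libraries at 48 h, against 9.67 to 10.3 in DMSO libraries. It was almost wholly Pecam1, with a mean over the 24 libraries of 9.99. The means were -1.36 for Cdh5, -1.24 for Col1a1, -2.32 for Col1a2 and 0.29 for Pdgfrb, so the sum does not show the list moving together. The 4 erythroid markers, none of them tested and 2 at 0, ran from 1.52 to 1.61 in 4-OHT libraries at 48 h, against 1.54 to 1.56 in EtOH libraries. Among the B-cell leukemia markers, 5 of 9 rose and 2 of 9 fell with 4-OHT at 48 h, and 4 of 9 fell with AS1842856 (7 of 9 with the block). Of tested genes, 24.8% rose and 25.6% fell with 4-OHT, and 2.88% fell with AS1842856 (7.35% with the block). The part of these shifts in the differences above was not tested.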

How the data were processed

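Total RNA of 24 libraries was analysed from 4 deposited tables, each of 1 treated group and its vehicle, with 41444 genes, of which 20000 had values. The submitters' processing notes list mm10, DESeq2 1.44.0, Salmon 1.1.1 and STAR 2.7.11b, with no role for each. Library values and means are the authors' log2 values, deposited without a named transformation; the mean was identical in all 4 tables. The fold change is the authors' log2 value, its standard error and the test statistic are deposited scores, and the p-value and adjusted p-value are the authors' own, per the file headers. Read counts were not analysed here, so no counting interval is given. No libraries were copies of each other (smallest root mean square difference 0.144).

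Genes with an authors' mean corresponding to a normalised value of at least 10 were tested (11591). R 4.3.3 with limma 3.58.1 was used to fit the 2 groups compared, or the 4 groups of a contrast, with a trended variance. The fit was tested on simulated normal noise with the spread of the 4-OHT and EtOH libraries at 48 h. It recovered 89% of 100 changes of 0.5 and 97% of 100 changes of 1, with 13 false calls. The spread of the AS1842856 arm was not simulated. Percentages of vehicle were computed from the deposited fold change, with intervals of 1.96 standard errors; the deposited fold change divided by its standard error lay within 0.05 of the deposited test statistic for 79.9% to 84.5% of genes, so these intervals and the authors' p-values need not match. Lengths, positions and sequences came from GENCODE M21; 15 symbols were looked up by identifier. Named genes were the FOXO genes, the 5 nearest genes of each that passed with a treatment, and up to 4 list members with the smallest adjusted p in each 48 h comparison; individual genes named only in replicate-block counts and the leading forkhead gene were named after their values were seen. Values of some list members are not reported here. The FOXO genes and all lists were chosen with earlier results of these data known. Centred on their group means, same-numbered libraries correlated at 0.41, 0.25 and 0.14 for AS1842856 and DMSO at 48 h. Differently numbered ones of that time correlated at -0.31 to 0.18. There the replicate block is therefore given beside results it changes. At 24 h same-numbered AS1842856 and DMSO libraries correlated at 0.46, -0.33 and -0.19, and differently numbered ones at up to 0.50. Same-numbered 4-OHT and EtOH libraries correlated at -0.16 to 0.06 over both times. Alternatives were the replicate block, each library left out, median rescaling, other filters, 1 fit of all groups, no variance trend and the authors' test. Python 3.11.15 and matplotlib 3.10.9 drew the figures.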

Additional observations from a re-analysis of the deposited data

Results flagged for a closer look

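Foxo1 differed between the compound and the deletion, by a test of the difference itself. As Foxo1 is the gene targeted in the 4-OHT arm, this difference was built into the design. At 24 h the AS1842856 response minus the 4-OHT response was 1.52, with means of 9.51 in AS1842856 libraries against 9.69 in DMSO libraries, and 8.14 in 4-OHT libraries against 9.84 in EtOH libraries. At 48 h it was 1.67, with means of 9.18 in AS1842856 libraries against 9.48 in DMSO libraries, and 8.10 in 4-OHT libraries against 10.06 in EtOH libraries. Both contrasts passed in limma without any 1 of the 12 libraries, with adjusted p-values of at most 6.98e-04 at 24 h and 3.00e-05 at 48 h.

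Foxo4 differed between the arms at 48 h by -0.79, again by a test of the difference. Its 3 AS1842856 libraries all lay below the DMSO libraries, and its 3 4-OHT libraries all lay above the EtOH libraries. Among all tested genes, the groups at 48 h did not overlap for 26.8% with AS1842856 and for 59.5% with 4-OHT.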

How the results depend on the processing

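The calls of Foxo1 with 4-OHT at both times, of Foxo4 with 4-OHT at 48 h, of Foxo1 between arms at both times and of Foxo4 between arms at 48 h kept their direction and their call under every alternative run for them. Foxo4 with AS1842856 at 48 h stayed at -0.44 but did not pass without a filter on low genes (-0.44, adjusted p = 0.124), where more genes were tested, or without a variance trend (-0.44, adjusted p = 0.05), and ran from -0.51 to -0.37 with 1 library left out. With the replicate block Foxo1 with AS1842856 at 48 h passed (-0.29), as did 1603 genes against 547 without it, and the block changed no other call of a FOXO gene in a treatment comparison or between arms or times. With median rescaling the Foxo4 response to 4-OHT at 48 h minus 24 h passed (0.26, adjusted p = 0.0320). Without a variance trend Foxo6 with 4-OHT at 24 h passed (0.14, adjusted p = 0.0489). The authors' deposited test turned the uncalled Foxo3 difference with AS1842856 at 24 h (0.0018, against -0.0056). Their causes were not tested.

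With 1 library left out, Foxo1 ranged from -0.12 to 0.017 for 4-OHT at 48 h against 24 h, from -0.22 to 0.0013 for the compound response at 48 h minus 24 h and from -0.35 to -0.21 for the deletion response. Foxo3 ranged from -0.11 to 0.062 and from -0.088 to 0.0087 with AS1842856 at 24 h and 48 h, and from -0.11 to 0.056 and -0.020 to 0.046 for the time contrasts of compound and deletion. Foxo4 ranged from -0.24 to -0.027 with AS1842856 at 24 h, from -0.36 to -0.15 between arms at 24 h, from -0.42 to -0.20 for the compound time contrast and from 0.18 to 0.26 for the deletion time contrast. Foxo6 ranged from -0.013 to 0.033 with 4-OHT and from -0.0083 to 0.076 with AS1842856 at 48 h, from -0.020 to 0.064 between arms at 48 h and from -0.041 to 0.043 for the compound time contrast.

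Genes called with 4-OHT numbered 3379 at 24 h, 2218 in 1 fit of all groups and 2202 among genes at or above the median, where fewer were tested. At 48 h they numbered 5836, and 3553 among genes at or above the median. With AS1842856 at 24 h 1 gene was called, 0 in 1 fit of all groups, 0 among genes at or above the median, 4 without a filter, 15 in the authors' test, and 1 to 18 with 1 library left out. At 48 h 547 were called, 1212 in 1 fit of all groups, 205 without a filter, 1505 in the authors' test, and 107 to 853 with 1 library left out. Depth is unknown, so counting error cannot be given. The order of levels per length was the same with the longest transcript.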

Other observations

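The widest uncertainty of a fold change within the family was that of Foxo6. At 48 h the authors' deposited table gives 103% of EtOH with 4-OHT (95% interval 68.1% to 155%) and 109% of DMSO with AS1842856 (95% interval 71.3% to 165%), intervals that leave room for a change in either direction.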
